A study of Mus musculus with 2 samples.

Results

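The genes described here are 31 genes of cholesterol and fatty acid synthesis, measured by single-cell RNA sequencing in cultured mouse macrophages with or without Tamm-Horsfall protein. They were taken by gene symbol from the 31053 genes of the count tables, and all 31 symbols were present once. The list was divided by pathway into a sterol branch of 21 genes (enzymes from acetyl-CoA to cholesterol, with Insig1, Srebf2 and Stard4) and a fatty acid branch of 10 genes (Acly, Acaca, Fasn, Elovl5, Elovl6, Scd1, Scd2, Fads1, Fads2 and Srebf1).

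Bone marrow from wild-type 129Sv mice had been cultured with 50 ng/ml M-CSF and 10% FBS, M-CSF being the cytokine that drives macrophage differentiation. On day 7 one culture was given THP, a truncated form of Tamm-Horsfall protein that does not polymerize, at 1 ug/ml for 18 hours, and the other was given the vehicle, 5% dextrose. The protein is known as uromodulin too, and kidney tubule cells release it into urine and blood. Each culture gave 1 droplet library, and strain, serum, M-CSF and timing were the same for both, so THP and dextrose are the labelled difference. With 1 library per group there was no replicate check and no test: every interval below is an exact Poisson 95% interval, or a count of cells, and covers counting error only. The labels do not say how many mice gave the marrow.

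Cells make cholesterol from acetyl-CoA by way of mevalonate, isoprenoid units, squalene and lanosterol, and make fatty acids from the same acetyl-CoA through malonyl-CoA. Both routes are switched on by SREBP transcription factors: SREBP-2, encoded by Srebf2, acts mainly on the sterol genes, and SREBP-1, encoded by Srebf1, mainly on the fatty acid genes. When sterols are plentiful, Insig proteins hold SREBP precursors in the endoplasmic reticulum, while LXR receptors, which sense oxidised sterols, raise Srebf1 and the fatty acid genes in macrophages.

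After cells with fewer than 500 genes, fewer than 1000 UMIs (unique molecular identifiers, each counting 1 captured mRNA molecule) or more than 10% mitochondrial UMIs were left out, 12123 THP cells and 10978 vehicle cells remained, with medians of 16113 and 17223 UMIs per cell. The libraries shared 42 cell barcodes. Counts were summed per library and given as CPM, scaled to the library's summed UMIs. Over the 8012 genes that reached 10 CPM in either library, the median log2 ratio of THP over vehicle was -0.18, so a gene at the middle of the distribution was listed slightly lower in the THP library. Ratios throughout are log2 of CPM + 1, which understates differences of low genes.

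The DNA just before the start site was compared between the branches. RefSeq promoters (build GRCm38.p6, 250 bases before each start site) were matched by symbol for 24 of the 31 genes, 17 of the sterol branch and 7 of the fatty acid branch. Exact matches were sought on both strands to TCACNCCAC, a form of the sterol regulatory element that SREBPs bind, to CCAAT, the NF-Y box, and to GGGCGG, the Sp1-type GC box. None of these letter strings holds another, although neighbouring matches can overlap. CCAAT was present in at least 1 promoter of 16 of the 17 sterol genes (94.1%) and 3 of the 7 fatty acid genes (42.9%), against 37.5% of all 27025 genes and 33.8% of all 32851 promoters. GGGCGG gave the same counts in the members, against 35.4% of all genes and 32.7% of all promoters. TCACNCCAC was found in 1 of the 24 genes, Hmgcs1, at 137 bases before the start, and in 1.05% of all promoters (1.22% of genes).

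The promoters of 5 genes are printed 5′ to 3′ on the gene's strand as examples from both branches: Hmgcs1, Mvk and Mvd of the mevalonate steps, and Acly and Fasn of fatty acid synthesis. Promoters of other members, such as Acaca, Pmvk and Cyp51, were searched but are not printed. Capitals mark CCAAT or its reverse complement ATTGG and, in Hmgcs1, the TCACCCCAC match. Mvk holds 5 CCAAT matches, Hmgcs1 and Fasn 3 each (in Fasn, neighbouring matches overlap), Mvd 2 and Acly 0, while Acly holds 4 GGGCGG matches, left in lower case. The branch counts therefore do not hold gene by gene, since Fasn has as many CCAAT matches as Hmgcs1 and Acly more GGGCGG matches than the 3 sterol genes shown.
Hmgcs1 (chr13:119690101-119690350, plus strand): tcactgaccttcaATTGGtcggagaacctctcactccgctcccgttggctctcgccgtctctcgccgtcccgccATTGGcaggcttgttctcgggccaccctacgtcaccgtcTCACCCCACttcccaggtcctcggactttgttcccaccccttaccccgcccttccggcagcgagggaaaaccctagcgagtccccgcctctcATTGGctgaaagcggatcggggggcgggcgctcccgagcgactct
Mvk (chr5:114444019-114444268, plus strand): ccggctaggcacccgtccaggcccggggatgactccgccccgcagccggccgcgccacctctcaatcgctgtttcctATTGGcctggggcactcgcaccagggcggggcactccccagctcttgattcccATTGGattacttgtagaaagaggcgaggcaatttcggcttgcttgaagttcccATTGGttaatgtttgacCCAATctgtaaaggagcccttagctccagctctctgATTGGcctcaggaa
Mvd (chr8:122443423-122443672, minus strand): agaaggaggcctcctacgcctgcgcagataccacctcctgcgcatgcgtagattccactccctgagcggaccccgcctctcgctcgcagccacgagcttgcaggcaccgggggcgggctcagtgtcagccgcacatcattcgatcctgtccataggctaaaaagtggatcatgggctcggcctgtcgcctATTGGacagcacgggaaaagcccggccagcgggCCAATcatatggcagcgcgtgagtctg
Acly (chr11:100528001-100528250, minus strand): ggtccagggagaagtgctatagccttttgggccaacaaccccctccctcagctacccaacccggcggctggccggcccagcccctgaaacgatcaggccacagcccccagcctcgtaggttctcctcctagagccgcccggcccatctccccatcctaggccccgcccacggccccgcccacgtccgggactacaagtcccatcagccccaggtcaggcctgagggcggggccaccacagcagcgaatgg
Fasn (chr11:120824548-120824797, minus strand): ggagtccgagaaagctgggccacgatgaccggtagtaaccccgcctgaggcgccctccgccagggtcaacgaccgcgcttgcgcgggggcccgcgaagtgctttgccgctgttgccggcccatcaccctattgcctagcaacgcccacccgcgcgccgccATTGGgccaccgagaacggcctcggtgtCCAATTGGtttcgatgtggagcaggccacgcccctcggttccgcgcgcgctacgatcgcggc

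Over all kept cells the sterol branch and the fatty acid branch lay on different sides of 0. The sterol genes together made up 833 CPM (829 to 837) with THP and 808 CPM (804 to 811) with vehicle, and the fatty acid genes 249 CPM (247 to 251) and 303 CPM (300 to 305). Of the 31 genes, 27 reached 10 CPM in at least 1 library, Elovl6 with vehicle alone; Lss, Tm7sf2, Scd1 and Fads2 did not. Of these 27, 0 differed by 2-fold or more, where 3.88% of all 8012 genes did, and 1 (Acaca) differed by 1.5-fold or more, where 19.6% of all genes did.

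In the sterol branch the median log2 ratio over 19 genes at 10 CPM was 0.076. Of these, 13 were higher with THP and 6 lower, while 32.4% of all genes tested were higher. Intervals did not overlap for 10 higher and 5 lower sterol genes, against 26.3% and 61.3% of all genes, since at this depth the intervals of 87.6% of genes were apart. In the fatty acid branch the median over 8 genes was -0.31, with 1 gene higher (Fasn) and 7 lower, all with intervals apart. Relative to the median of all genes (-0.18), 18 of 19 sterol genes and 3 of 8 fatty acid genes lay above. Genes are not replicates, so these counts describe the 2 libraries.

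**Figure D1:**
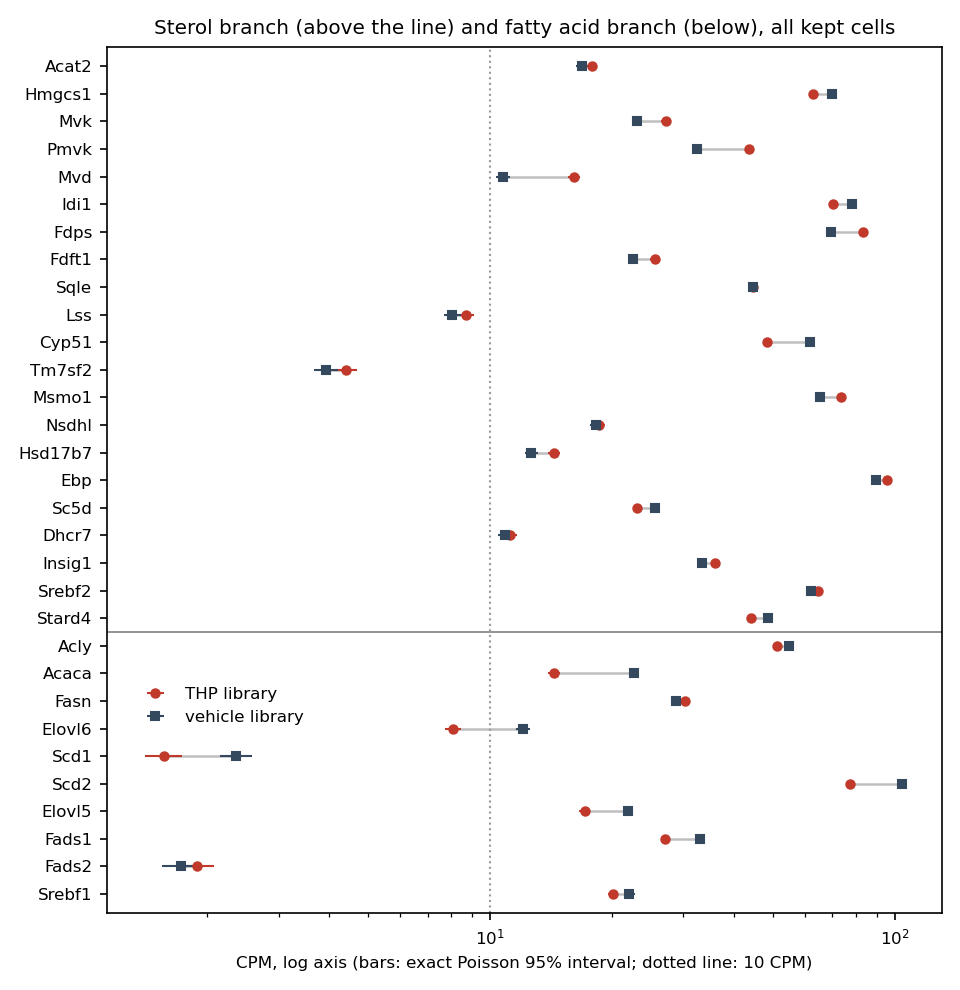
CPM of each gene (log axis) in all kept cells of the THP library (circles) and the vehicle library (squares), with exact Poisson 95% intervals as bars and a dotted line at 10 CPM. Above the horizontal line most sterol genes are close to or right of their vehicle value (Mvd 16.1 against 10.8), and below it Acaca, Elovl6, Scd2, Elovl5 and Fads1 lie left of it.

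As first computed, the mevalonate steps held the highest ratios. Pmvk, which adds the second phosphate to mevalonate (chr3:89454541-89469013, plus strand, build mm10), was at 43.5 CPM (42.7 to 44.4) with THP and 32.4 CPM (31.7 to 33.2) with vehicle, a log2 ratio of 0.41. Mvd, the decarboxylase that makes isopentenyl diphosphate (chr8:122433601-122443422, minus strand), was at 16.1 CPM (15.6 to 16.6) and 10.8 CPM (10.3 to 11.2), a log2 ratio of 0.54 that ranged from 0.42 to 0.80 over the alternative settings. These ratios stood at the 95.9 and 97.3 percentiles of all genes tested. Mvk, mevalonate kinase, was at 27.1 CPM (26.5 to 27.8) and 23.1 CPM (22.4 to 23.7), a log2 ratio of 0.23. Hmgcs1, which condenses acetyl-CoA units into HMG-CoA at the entry to the pathway, went the other way, at 62.7 CPM (61.7 to 63.7) with THP and 69.8 CPM (68.7 to 71.0) with vehicle. Its log2 ratio of -0.15 changed sign with TMM scaling (0.13), RLE scaling (0.12) and a correction for transcript length (0.07), which are described below. Acat2, the thiolase that starts the chain, was at 17.8 and 16.8 CPM with overlapping intervals.

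The later steps were closer to even as first computed. After the length correction described below this did not hold for each gene. Fdps was then at 0.41, Fdft1 at 0.42 and Hsd17b7 at 0.52, beside 0.31 for Pmvk and 0.29 for Mvk. Idi1 was at 0.02, and Nsdhl and Ebp were at 0.06. Among the isoprenoid enzymes, Fdps, which makes farnesyl diphosphate, was at 83.1 CPM with THP and 69.5 CPM with vehicle (log2 0.25), and Idi1, the isomerase before it, at 70.3 and 78.3 CPM (log2 -0.15, and 0.13 with TMM scaling). Of the squalene enzymes, Fdft1, squalene synthase, was at 25.5 and 22.5 CPM (log2 0.17), and Sqle, squalene epoxidase, at 44.4 and 44.6 CPM. The intervals of Sqle overlapped, and Lss, lanosterol synthase, was below 10 CPM in both libraries (8.73 and 8.07 CPM). Among the 7 enzymes after lanosterol at 10 CPM, 5 were higher with THP and 2 lower, with a median of 0.04. Cyp51, the lanosterol demethylase (chr5:4081145-4104746, minus strand), had the lowest ratio of the branch, at 48.4 CPM (47.5 to 49.3) and 61.6 CPM (60.6 to 62.7), a log2 ratio of -0.34. It was the 1 sterol gene that was lower in the THP library under every alternative setting tried. With TMM scaling it was at -0.06 and after the length correction described below at -0.07.

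Except for Sc5d, the enzymes that follow Cyp51 did not share its direction. Msmo1, the C4-methyl oxidase, was at 73.5 and 65.3 CPM (log2 0.17), Hsd17b7, the ketoreductase, at 14.4 and 12.6 CPM (log2 0.18), and Ebp, the sterol isomerase, at 95.7 and 89.8 CPM (log2 0.09), THP before vehicle. Nsdhl, the C4 decarboxylase, was at 18.6 and 18.2 CPM and Dhcr7, which reduces 7-dehydrocholesterol, at 11.2 and 10.9 CPM, both with overlapping intervals. Sc5d, the C5 desaturase, was at 23.1 and 25.5 CPM (log2 -0.14), and Tm7sf2, the C14 reductase, was low at 4.40 and 3.94 CPM. As first computed the regulators lay near 0: Srebf2 was at 64.5 and 61.8 CPM (log2 0.06), and Insig1, itself a target of SREBP and its anchor, at 35.9 and 33.3 CPM (log2 0.11). With TMM scaling and after the length correction Srebf2 was at 0.34 and 0.46, and Insig1 at 0.38 and 0.22. With the same mix of marker-gated cells, as described below, Srebf2 was at 0.00095 and Insig1 at -0.03. Stard4, which carries cholesterol between membranes, was lower in the THP library, at 44.1 and 48.5 CPM (log2 -0.14).

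In the fatty acid branch the lower values centred on chain initiation by Acaca, elongation and desaturation. Acaca, acetyl-CoA carboxylase, which makes malonyl-CoA (chr11:84129672-84401651, plus strand), was at 14.4 CPM (13.9 to 14.9) with THP and 22.6 CPM (22.0 to 23.3) with vehicle, a log2 ratio of -0.62. Scd2, a desaturase that makes monounsaturated fatty acids (chr19:44293674-44306864, plus strand), was at 77.3 CPM (76.2 to 78.5) and 104 CPM (102 to 105), a log2 ratio of -0.42. Elovl6, which extends palmitate, was at 8.10 and 12.0 CPM (log2 -0.52), and Elovl5, which extends polyunsaturated chains, at 17.1 and 21.9 CPM (log2 -0.34). These 4 genes were lower in the THP library under every alternative setting. After the length correction described below, Acaca was at -0.02, Scd2 at -0.0014, Elovl6 at -0.07 and Elovl5 at -0.21. Fads1, a polyunsaturated fatty acid desaturase, was at 27.1 and 32.9 CPM (log2 -0.27), Acly, which releases acetyl-CoA from citrate, at 51.0 and 54.8 CPM (log2 -0.10), and Srebf1 at 20.1 and 22.1 CPM (log2 -0.13). Fads1, Acly and Srebf1 changed sign under other settings. Fasn, fatty acid synthase, was at 30.3 CPM (29.6 to 31.01) and 28.7 CPM (28.0 to 29.4), the 1 fatty acid gene higher in the THP library under every setting. Scd1, at 1.56 and 2.35 CPM, and Fads2, at 1.89 and 1.72 CPM, were low in both libraries.

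A further 40 genes of sterol regulation, lipid handling and fatty acid modification were read beside the members. Of these, 29 reached 10 CPM, with a median log2 ratio of -0.07, 11 higher and 18 lower in the THP library. Of them 1 gene, Nr1h3, which encodes the LXR alpha receptor, was past 2-fold, at 26.4 CPM with THP and 12.4 CPM with vehicle (log2 1.03). When both libraries were given the same mix of marker-gated cells, as described below, the ratio of Nr1h3 was 0.72. Under that setting 0 of the further genes at 10 CPM were past 2-fold. The other genes with the largest ratios among these 29 were Acsl3, an acyl-CoA synthetase, at 21.2 and 38.3 CPM (log2 -0.82), Soat1, which esterifies cholesterol for storage, at 86.7 and 131 CPM (log2 -0.59), Idh1, an NADPH-producing enzyme, at 64.9 and 94.5 CPM (log2 -0.53), and Elovl1, a long-chain elongase, at 83.9 and 63.2 CPM (log2 0.40). With TMM scaling and after the length correction described next, Soat1 went to -0.30 and -0.03, Acsl3 to -0.55 under both and Idh1 to -0.25 and -0.48. Nr1h3 was at 1.30 and 1.04 and Elovl1 at 0.68 and 0.39, so the ratio of Soat1 was near 0 once length was taken into account and the other 4 kept their direction.

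Scaling and transcript length both moved the position of 0. With TMM scaling, which sets most genes to no difference, the median of all genes was 0.11, the sterol median 0.35 and the fatty acid median -0.032. With RLE scaling these were 0.10, 0.34 and -0.038, so the sterol branch kept its direction and the fatty acid branch lay near 0. The ratio of all genes also went down with the length of the longest annotated transcript: from the shortest to the longest of 5 equal groups the medians were 0.11, -0.06, -0.22, -0.33 and -0.51. The sterol genes had a median length of 3027 bases and the fatty acid genes 4629 bases, against 3388 bases over all genes tested. After a smooth trend with length was removed, the sterol median was 0.26 and the fatty acid median -0.0099.

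Length mattered most for genes with long transcripts, in both branches. Acaca (9513 bases) went from -0.62 to -0.02 after the correction, Scd2 from -0.42 to -0.0014 and Elovl6 from -0.52 to -0.07, while Elovl5 kept -0.21. Fasn (10050 bases) went from 0.07 to 0.69, the highest corrected ratio of the members. In the sterol branch Srebf2 (5077 bases) went from 0.06 to 0.46, Stard4 (5097 bases) from -0.14 to 0.26 and Sc5d (4787 bases) from -0.14 to 0.23. Mvd (0.52) and Pmvk (0.31) kept most of their ratio, and Cyp51 was at -0.07. The difference between the branch medians was 0.38 as first computed and 0.27 after the correction.

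**Figure D2:**
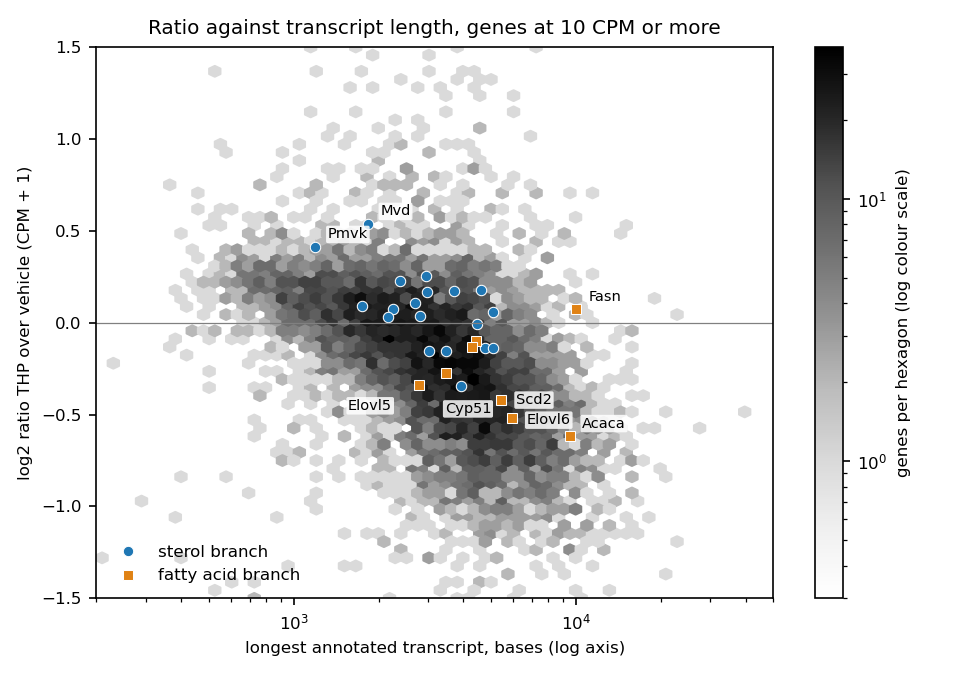
The log2 ratio of THP over vehicle against the longest annotated transcript in bases (log axis) for genes at 10 CPM or more, grey hexagons giving the number of genes, circles the sterol genes and squares the fatty acid genes; genes beyond the axis limits are not drawn. The cloud goes down to the right, Acaca, Elovl6 and Scd2 lie inside it, and Fasn, at 0.07, lies above it.

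The culture held cells other than macrophages, so the members were next read within groups of cells gated by marker genes, none of which is a member. A cell entered the gate whose summed markers, per 10000 UMIs, most exceeded that gate's threshold. The thresholds were set after the distribution of marker sums had been seen, so a gate is a range of marker levels and not a sharp type. There were 7 gates with at least 200 cells in each library, and counts and orders of gates below refer to these 7 unless a smaller gate is named. In the THP and vehicle libraries they held 3736 and 2287 cells (macrophage), 1730 and 2124 (monocyte), 1333 and 1706 (immature neutrophil), 878 and 1153 (myeloid progenitor), 806 and 820 (antigen-presenting cell), 536 and 555 (osteoclast-like macrophage) and 376 and 626 (mature neutrophil). Another 2487 and 1541 cells passed no threshold. Of the macrophage gate, 952 and 519 cells were within 1.5 times the threshold, and 316 and 282 also passed another threshold. In the immature neutrophil gate 1097 and 1314 cells, and in the progenitor gate 842 and 1122, also passed another threshold.

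The mix of cells differed between the libraries: the macrophage gate held 30.8% of the THP cells and 20.8% of the vehicle cells, and the immature neutrophil gate 11.0% and 15.5%. The summed markers over all kept cells moved with it. They were at 1444 and 1174 CPM for the 8 macrophage genes and 2615 and 3941 CPM for the 4 immature neutrophil genes. Every gene of both lists was above 1 CPM. The lowest macrophage marker was at 9.52 CPM with THP, and the lowest with vehicle at 14.97 CPM. At least 1 macrophage marker was thus lower with THP, against the sum. When both libraries were given the same mix of gates, the sterol median was 0.00095 in place of 0.076 and the fatty acid median -0.37 in place of -0.31.

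Within gates the order of the branches was the same in each of the 7. In the macrophage gate the median log2 ratio of THP over vehicle was -0.04 for the sterol branch, -0.43 for the fatty acid branch and -0.17 for all genes. In the antigen-presenting cell gate these were 0.07, -0.48 and -0.22, in the monocyte gate 0.01, -0.26 and -0.17, and in the osteoclast-like gate -0.03, -0.33 and -0.18. In the progenitor gate they were 0.13, -0.19 and -0.17, and in the immature neutrophil gate 0.19, -0.12 and -0.19. The mature neutrophil gate gave 0.42, -0.06 and -0.49, but with 2 fatty acid genes at 10 CPM and medians of 2194 and 1938 UMIs per cell it is the least precise. The sterol median was thus at or above 0 in 5 gates and slightly below it in the macrophage and osteoclast-like gates, and it was above the fatty acid median in 7 of 7 gates under each of 3 alternative settings as well. These ratios use the gates' own totals and carry the length trend described above. They take genes at 10 CPM in at least 1 library of the gate, so a gene can enter through the library where it is higher.

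**Figure D3:**
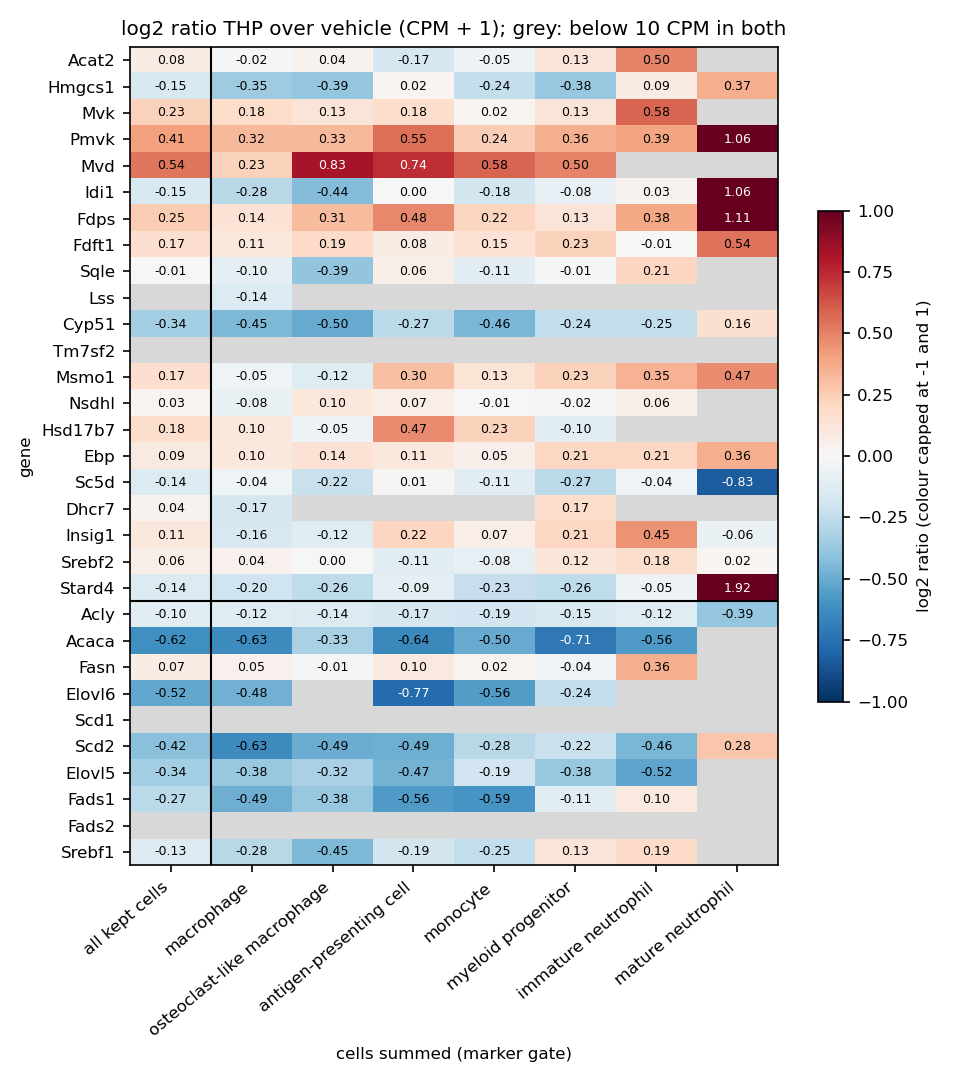
The log2 ratio of THP over vehicle (CPM + 1) for each gene in all kept cells and in the 7 marker gates, red where higher with THP and blue where lower, grey where the gene was below 10 CPM in both libraries. Pmvk, Mvd and Fdps are red in every gate with a value, and Acaca, Elovl6 and Elovl5 are blue. A value is also shown where only 1 library reached 10 CPM.

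Single genes differed in how steady they were across gates, each set beside the share of all genes at 10 CPM that were higher in the THP library. That share was 33.1% in the macrophage, 32% in the monocyte, 34.9% in the immature neutrophil, 33.3% in the progenitor, 31.6% in the antigen-presenting cell, 31.7% in the osteoclast-like and 23.8% in the mature neutrophil gate. Pmvk, Fdps and Ebp were higher in the THP library in 7 of 7 gates. Mvk was higher in 6 of 6 and Mvd in 5 of 5 gates where they reached 10 CPM in at least 1 library. The intervals were apart in 6 of these gates for Pmvk, 5 for Fdps, 3 for Ebp, 2 for Mvk and 5 for Mvd. The share of all genes used the same filter, by which a gene can enter through the library where it is higher. Fdps did so in the mature neutrophil gate, at 12.3 CPM with THP and 5.18 CPM with vehicle, and Mvd in the osteoclast-like gate. Where only 1 library reached 10 CPM the filter fixes the direction, so such gates add nothing to how steady a gene was. How many other gates entered this way was not counted. Mvd had its lowest ratio in the macrophage gate and its highest in the osteoclast-like gate: in the macrophage gate it was at 18.6 CPM (17.7 to 19.5) and 15.6 CPM (14.6 to 16.7), and in the osteoclast-like gate at 16.6 CPM (14.5 to 18.9) and 8.93 CPM (7.57 to 10.5). Acly was lower in 7 of 7, Acaca and Elovl5 in 6 of 6, and Elovl6 in 4 of 4 gates, with intervals apart in 2 gates for Acly, 5 each for Acaca and Elovl5 and 3 for Elovl6. Over all kept cells Elovl6 reached 10 CPM with vehicle alone, at 8.10 CPM with THP and 12.0 CPM with vehicle. Its highest level with THP among the 7 gates was 11.5 CPM, in the monocyte gate. Gates can thus enter its count through the vehicle library alone, where it was higher. Scd2 and Cyp51 were lower in 6 of 7, the mature neutrophil gate being the exception for both, with 9 and 11 UMIs of Scd2 and 9 and 12 of Cyp51 there.

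Among the 7 gates Scd2 had its lowest ratio in the macrophage gate (-0.63), at 86.9 CPM (85.1 to 88.8) with THP and 135 CPM (132 to 138) with vehicle. In the monocyte gate it was at 81.0 CPM (77.5 to 84.5) and 98.2 CPM (95.2 to 101). Hmgcs1 was at 79.3 CPM (77.5 to 81.1) and 101 CPM (98.9 to 104) in the macrophage gate, a log2 ratio of -0.35, and at 35.1 CPM (31.6 to 38.9) and 33.0 CPM (30.1 to 36.2) in the immature neutrophil gate, where the intervals overlapped. Hmgcs1, Idi1 and Cyp51 were thus lower in the THP library in the macrophage gate (-0.35, -0.28 and -0.45) beside Pmvk, Mvd and Mvk that were higher (0.32, 0.23 and 0.18). The first 3 have longer transcripts (3464, 3027 and 3931 bases) than the others (1194, 1833 and 2380 bases), and over all kept cells the length correction put Hmgcs1 at 0.07, Idi1 at 0.02 and Cyp51 at -0.07. The part of length in the opposite directions within the macrophage gate was not tested.

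Between the 7 gates of the same library the branch sums differed more than between libraries. Summed over the branch, the sterol genes were highest in the macrophage gate (935 CPM in the THP library, 983 CPM with vehicle) and lowest in the mature neutrophil gate (356 and 259 CPM), a range of 2.63-fold and 3.79-fold. The fatty acid genes ran from 278 and 367 CPM in the macrophage gate to 41.4 and 57.0 CPM in the mature neutrophil gate, a range of 6.71-fold and 6.44-fold. Of the gates with fewer cells, the stromal gate held more of the fatty acid branch than the macrophage gate, at 377 CPM (350 to 405) and 603 CPM (575 to 632), and the mast cell or basophil gate held 337 CPM (277 to 406) and 380 CPM (307 to 464). Of 31 members, 30 were higher in the macrophage gate than in the immature neutrophil gate in both libraries. Of the 25 members whose mean over both gates was at 10 CPM or more, 24 were, as were 66% of all genes at that mean. The exception was Sc5d, which had its highest level among the 7 gates in the immature neutrophil gate, at 30.1 CPM (26.8 to 33.6) and 30.97 CPM (28.1 to 34.0), against 23.9 CPM (22.9 to 24.9) and 24.6 CPM (23.4 to 25.9) in the macrophage gate.

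**Figure D4:**
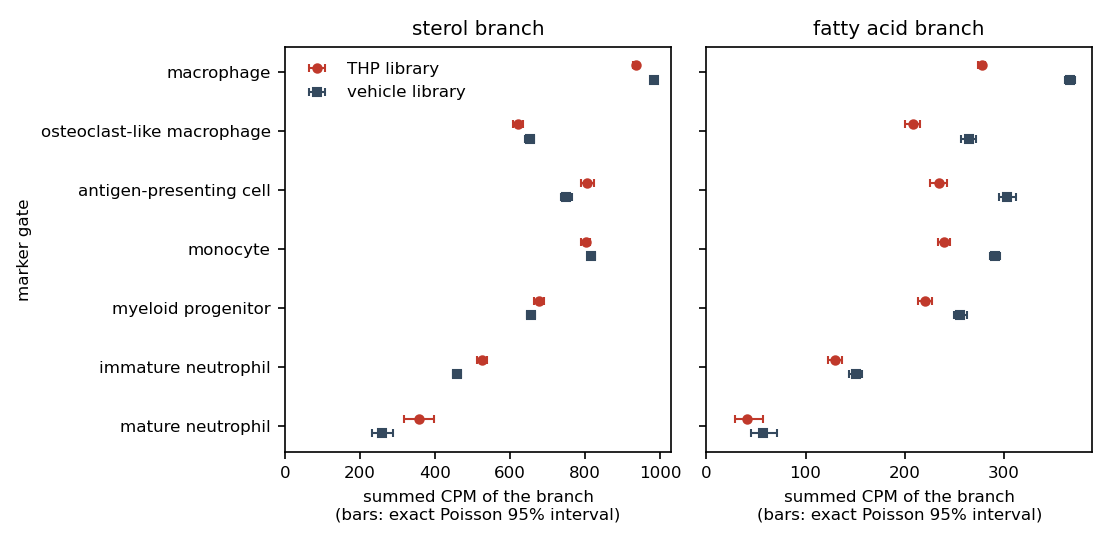
Summed CPM of the sterol branch (left) and the fatty acid branch (right) in each of the 7 marker gates with at least 200 cells per library, circles for the THP library and squares for the vehicle library, with exact Poisson 95% intervals. Of these 7, both branches are highest in the macrophage gate and lowest in the mature neutrophil gate, and the fatty acid values of the vehicle library lie to the right of those of the THP library in each gate, with overlapping intervals in the mature neutrophil gate.

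Much of this gradient was shared by other genes. The counts here take genes whose mean over the pair of gates was at 10 CPM or more, while the medians against the macrophage gate take genes at 10 CPM in either gate. Past 2-fold lower in the mature neutrophil gate than in the macrophage gate were 19 of 23 members in the THP library, where 52.7% of all genes were, and 22 of 24 with vehicle, where 45% were. In the immature neutrophil gate the counts were 9 of 25 (19.7% of all genes) and 15 of 25 (22.1%). Against the macrophage gate the median log2 ratio of the sterol branch in the immature neutrophil gate was -0.91 with THP and -1.15 with vehicle, where all genes had -0.45 and -0.39. Cells of the neutrophil gates also held fewer UMIs per cell, with medians of 6211 and 6958.5 in the immature gate against 20870 and 22715 in the macrophage gate, and the part of this depth in the result was not tested.

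In the myeloid progenitors the branch medians differed, while both branch sums were lower than in the macrophage gate. Against that gate the median log2 ratio of the sterol branch was -0.59 with THP and -0.67 with vehicle. The fatty acid median was nearer 0, at -0.14 and -0.09, over few genes, and all genes were at 0.06 and 0.12. The sterol genes summed to 677 and 656 CPM in the progenitors against 935 and 983 CPM in the macrophage gate. The fatty acid genes summed to 221 and 256 CPM against 278 and 367 CPM. In the osteoclast-like gate the sterol median was -0.67 and -0.66 and the fatty acid median -0.32 and -0.41, against -0.22 and -0.18 for all genes, and all 21 sterol genes were lower than in the macrophage gate in both libraries, 19 of them at a mean of 10 CPM or more, as were 68.9% of all genes at that mean. In the antigen-presenting cell and monocyte gates the sterol medians were between -0.50 and -0.21.

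Scd1, a desaturase of the same kind as Scd2, had its highest levels in gates of few cells. It was at 28.2 CPM (21.2 to 36.6) in 79 stromal cells of the THP library and 66.3 CPM (57.4 to 76.3) in 70 of the vehicle library, and at 29.9 CPM (20.3 to 42.4) and 65.4 CPM (46.0 to 90.1) in the 113 and 66 cells of the B cell gate. In the macrophage gate it was at 1.85 CPM (1.59 to 2.15) and 3.06 CPM (2.63 to 3.53), and in the mature neutrophil gate at 0 UMIs in both libraries, where the upper bounds were 4.13 and 2.73 CPM. Scd2 was also highest among these gates in the stromal cells of the vehicle library, at 306 CPM (286 to 326), and at 142 CPM (126 to 159) in those of the THP library. The 5 stromal markers summed to 51.0 CPM over all kept cells of the THP library and 219 CPM with vehicle, each above 1 CPM. The lowest of them was at 3.79 CPM with THP, and the lowest with vehicle at 1.64 CPM. At least 1 stromal marker was thus higher with THP, against the sum. Within the macrophage gate the ratio of Scd2 (-0.63) was further from 0 than over all cells (-0.42). Of the Scd1 UMIs of all kept cells, the stromal gate held 55 of 351 with THP (15.7%) and 196 of 489 with vehicle (40.1%). Without that gate Scd1 was at 1.33 CPM (1.18 to 1.49) and 1.43 CPM (1.27 to 1.60), with overlapping intervals, in place of 1.56 and 2.35 CPM.

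The members also varied together from cell to cell. Each cell with at least 10000 UMIs was thinned to that number, cells of a gate were ranked by the summed UMIs of 11 sterol genes (every other gene of the branch, among them Fdps, Sqle, Cyp51 and Insig1), and the remaining 10 sterol genes and the fatty acid branch were read in quintiles of that ranking. In the macrophage gate 3354 THP cells and 2081 vehicle cells were deep enough, and 382 and 206 were left out. From the lowest to the highest quintile the remaining sterol genes went from 324 to 610 CPM in the THP library (1.88-fold) and from 303 to 682 CPM with vehicle (2.25-fold). The fatty acid branch, which took no part in the ranking, went from 185 to 385 CPM (2.08-fold) and from 243 to 546 CPM (2.25-fold). A large part of this rise was Scd2, which went from 40.1 to 143 CPM with THP and from 63.1 to 242 CPM with vehicle. Srebf1, Elovl5 and Fads1 rose less, as given below. The 40 further lipid genes gave ratios of 0.99 and 1.00, and 10 cell cycle genes 1.13 and 0.96. The sum of the 40 is weighted to high genes such as Npc2, at 777 and 696 CPM over all kept cells. It does not describe each of the 40, which were not read singly here.

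**Figure D5:**
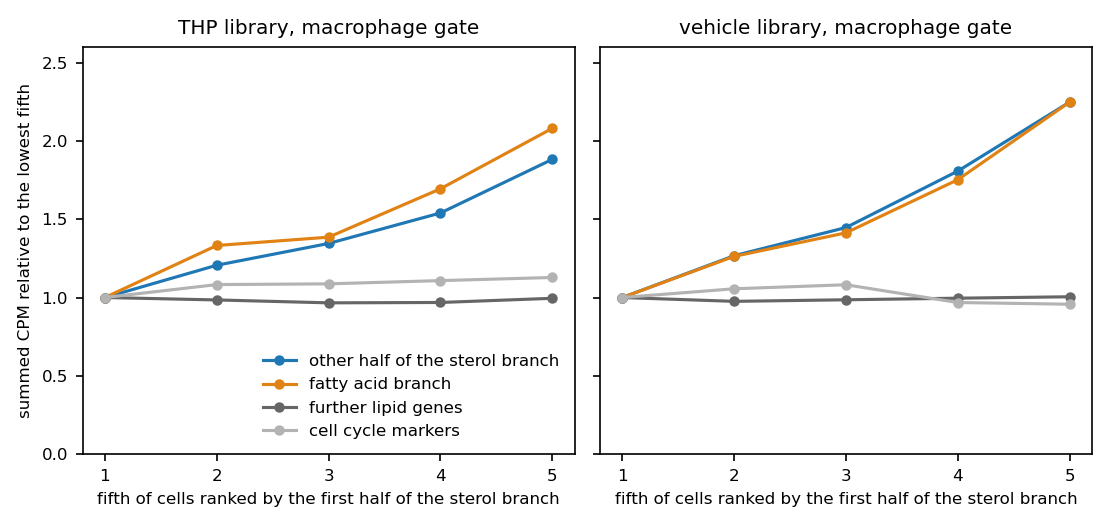
Summed CPM in 5 equal groups of macrophage gate cells ranked by 11 sterol genes, relative to the lowest group, in the THP library (left) and the vehicle library (right), for the 10 remaining sterol genes, the fatty acid branch, the 40 further lipid genes and 10 cell cycle genes. Both member lines go up to between 1.88 and 2.25 in the highest group, and the other lines stay between 0.96 and 1.13 there.

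Each gene was also read singly, ranked by the sterol set that did not hold it. Of the 21 sterol genes, 21 were higher in the highest quintile in both libraries, as were 10 of the 10 fatty acid genes. Among genes whose mean over the lowest and highest quintile was at 10 CPM or more, 20 of 20 sterol genes were higher in each library. So were 7 of 7 fatty acid genes with THP and 8 of 8 with vehicle. Past 2-fold were 8 of 20 sterol genes with THP and 13 of 20 with vehicle, and 2 of 7 and 3 of 8 fatty acid genes. Over all genes at that mean, read in the same cells before thinning, 69.4% and 70.6% were higher under the rankings by the 11 and the 10 genes with THP and 61.6% and 63.1% in the vehicle library. Past 2-fold there were 0.327% and 0.408% with THP and 0.345% and 0.269% in the vehicle library.

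The steepest members were not confined to the sterol branch. Scd2 went from 40.1 to 143 CPM with THP and from 63.1 to 242 CPM with vehicle, log2 ratios of 1.81 and 1.92. Fasn had ratios of 1.27 and 1.86, and Elovl6 of 1.41 and 1.70. In the sterol branch Idi1 had 1.57 and 1.72, Hmgcs1 1.34 and 1.64, Fdft1 1.58 and 1.38, and Cyp51 1.30 and 1.52, THP before vehicle. The flattest genes were Ebp (0.12 and 0.35), Srebf1 (0.17 and 0.66), Elovl5 (0.28 and 0.34) and Fads1 (0.41 and 0.19). Acaca (0.76 and 0.79) and Acly (0.67 and 0.42) were between. The transporter gene Stard4 was at 0.71 and 0.62. The low genes Scd1 and Fads2 rest on few UMIs: Scd1 had 1.41 and 2.34, from 6 to 27 and from 3 to 32 UMIs, and Fads2 1.66 and 1.56, from 3 to 24 and from 3 to 17 UMIs.

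The summed ratios were also above 1 in the other gates with at least 200 cells deep enough, which left out the mature neutrophils. Over 24 rankings (6 gates, both libraries and both sets of ranking genes) the ratio of the highest to the lowest quintile for the sterol genes not used was above 1 in 24, from 1.32 to 2.30 with a median of 1.91. For the fatty acid branch it was above 1 in 24, from 1.16 to 2.25 with a median of 1.65. The further lipid genes had a median of 1.05 and the cell cycle genes 1.07, with ranges of 0.98 to 1.33 and 0.78 to 1.49. The lowest member ratios were those of the vehicle library's myeloid progenitors (1.32 and 1.16, ranked by the 11 genes).

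Other measures moved with the ranking by the 11 genes. In the macrophage gate the 8 macrophage markers summed to 2659 CPM in the lowest quintile and 3156 CPM in the highest in the THP library, and to 2943 and 3640 CPM with vehicle. Median UMIs before thinning were 21422 and 20178.5 with THP and 24053 and 22396 with vehicle, so there the highest quintile was not the deepest. Median mitochondrial shares were 3.19% and 3.098%, and 3.85% and 3.54%. In the immature neutrophil gate the same markers went from 231 to 883 CPM with THP and from 122 to 483 CPM with vehicle, and median UMIs from 12521 to 22151 and from 11903 to 13804. In the other 4 gates the markers were higher in the highest quintile in both libraries (153 and 277 CPM in the progenitors of the THP library), and so were median UMIs, except in the osteoclast-like gate of the THP library (23974 and 23488). The part of the macrophage markers and of depth in the covariation was not tested. Cells of a library share their source, so the quintiles describe these libraries.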

How the data were processed

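Droplet single-cell RNA libraries of 1 THP-treated and 1 vehicle-treated culture of bone marrow derived macrophages were deposited as filtered matrices of UMI counts per gene and cell, made by the authors with Cell Ranger and STAR against mm10, per the submitters' processing notes; the headers give software version 3.1.0. No label or header names the annotation release. The deposited counts are not normalized, and 13193 and 11584 barcodes with 227129670 and 209092047 UMIs were given. Cells under 500 genes or 1000 UMIs, or over 10% mitochondrial UMIs, were left out (1070 and 606 barcodes). No doublet caller was run; an alternative without the 5% of cells richest in UMIs stood in for it.

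Counts were summed per library or gate and divided by the summed UMIs (CPM). Ratios are log2 of CPM + 1 for genes at 10 CPM or more in at least 1 library. Counts between gates or quintiles used a mean of 10 CPM over both, chosen after seeing the data. With 1 library per group no test was made. All 31 members are accounted for, and of the 40 further genes the 5 with the largest ratios among the 29 at 10 CPM are named; the members and lists were chosen with earlier results of these data known. Gates used summed markers per 10000 UMIs, with thresholds from 10 to 50. Scaling alternatives used TMM and RLE factors from edgeR 4.0.16 (R 4.3.3). Transcript lengths and gene coordinates came from GENCODE mouse release M21, matched by gene identifier, and the length trend was a lowess fit over a share of 0.3 of the genes. Promoters came from RefSeq (GRCm38.p6). Thinning to 10000 UMIs drew without replacement with a fixed seed. The ratio and call steps were tested on simulated counts. Other steps used Python 3.11.15, numpy 2.4.6, scipy 1.17.1, pandas 2.3.3 and statsmodels 0.14.6. Alternatives covered scaling, pseudocounts, filters on genes and cells, weights of cells, the mix of gates, transcript length, gate thresholds and the depth of thinning.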

Additional observations from a re-analysis of the deposited data

Results flagged for a closer look

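Insig1 had opposite directions in a pair of gates. It was higher in the THP library in the immature neutrophil gate, at 16.7 CPM (14.4 to 19.4) against 12.0 CPM (10.3 to 14.0) with vehicle (log2 0.45). In the macrophage gate it was lower, at 45.2 CPM (43.9 to 46.6) against 50.5 CPM (48.8 to 52.4), log2 -0.16. The intervals were apart in both gates, with 1 library each, and the difference between the gates was not tested.

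Stard4 was higher in the THP library in the mature neutrophil gate, at 44.7 CPM (32.0 to 60.9) against 11.1 CPM (6.22 to 18.3) (log2 1.92), which rests on 40 and 15 UMIs. In the myeloid progenitor gate it was lower, at 40.7 CPM (37.7 to 43.9) against 48.9 CPM (46.2 to 51.7), log2 -0.26. The difference between the gates was not tested.

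The 1070 barcodes of the THP library that were left out of the kept cells still held sterol genes, which summed to 897 CPM (859 to 937). In the 606 such barcodes of the vehicle library the sum was 752 CPM (708 to 798), and the fatty acid genes gave 409 CPM (383 to 436) and 410 CPM (377 to 444). These values come from barcodes of few genes or UMIs, or of high mitochondrial share. The comparisons above use them only in the alternative setting that took in all deposited barcodes.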

How the results depend on the processing

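The difference between the branch medians, 0.38, kept its direction under each alternative tried. It was 0.32 with a pseudocount of 5 CPM, 0.36 without the top 5% of cells by UMIs, 0.35 with equal weight per cell, 0.27 after the length correction and 0.42 with enzymes only. The sterol median of 0.076 was 0.35 with TMM and 0.34 with RLE factors, 0.063 with a pseudocount of 5 CPM, 0.060 without the top 5% of cells, 0.090 with a filter of 1 CPM and with no filter on genes, 0.15 with equal weight per cell, 0.00095 with the same mix of gates and 0.26 after the length correction. The fatty acid median of -0.31 was -0.032 with TMM and -0.038 with RLE factors, -0.26 with a pseudocount of 5 CPM, -0.20 with equal weight per cell, -0.372 with the same mix of gates and -0.0099 after the length correction. No member was past 2-fold under any alternative, and at a limit of 1.5-fold there was 1. Over the 11 alternatives computed for single genes, 10 of 19 sterol genes were higher and 1 lower under each, and 8 changed sign. Of 8 fatty acid genes 1 was higher, 4 were lower and 3 changed sign. The filters on genes and the pseudocounts among these alternatives cannot change the sign of a gene, so the counts rest on the other alternatives. The 2.25-fold covariation in the vehicle macrophage gate was 1.86-fold when cells were thinned to 5000 UMIs. With no filter on low genes, an alternative chosen after seeing the data, 5 of 10 fatty acid genes were past 2-fold between quintiles in each library, in place of 2 and 3. No paired analysis was possible because each group has 1 library. Counting error is small over all cells, but in the mature neutrophil gate it is wide (356 CPM, 318 to 397, for the whole sterol branch in the THP library), and no value here measures the spread between cultures.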
